A study of Mus musculus with 6 samples.

Results

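DNA methylation and Polycomb repression are the main systems by which a cell keeps genes silent through cell division, and the 10 mouse genes described here encode their central enzymes and partners. They are Dnmt1, Dnmt3a, Dnmt3b, Uhrf1, Tet1, Tet2, Tet3, Ezh2, Eed and Hells, taken by name from a table of 54532 annotated genes, and all 10 were found. Liver RNA was profiled by poly-A RNA sequencing in 6 libraries from mice aged 5 weeks, 3 from controls (Ctrl) and 3 from mice with Fam210a, a mitochondrial protein gene, knocked out in hepatocytes (Fam210aHKO). The sources used here do not give the strain, sex, Cre driver or deleted part of the gene, nor whether each library came from a separate animal, so p-values measure only the spread between these libraries, which may be technical. The genotype label names Fam210a for Fam210aHKO replicate 1 but Fam211a and Fam212a for replicates 2 and 3, so the groups were formed from the titles, which read Fam210aHKO for all 3.

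DNMT1 copies methylation onto new DNA strands after replication, and UHRF1 recognises half-methylated DNA and brings DNMT1 there. HELLS, also called LSH, is a chromatin remodeller needed for normal methylation of repeats. DNMT3A and DNMT3B place methylation on unmethylated DNA, and the TET dioxygenases oxidise methylated cytosine on the way to its removal. EZH2 is a catalytic subunit of Polycomb repressive complex 2 (PRC2), which methylates H3K27, and EED is the subunit that binds this mark and stimulates the enzyme. In the liver, several of these genes are known to be expressed most in dividing cells.

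The labels were first checked against the targeted gene. Fam210a stood at 119, 136 and 162 CPM in Ctrl replicates 1 to 3 and at 31.7, 28.6 and 44.2 CPM in Fam210aHKO (log2 fold change -1.99), where CPM are counts-per-million after scaling by trimmed mean of M values (TMM). Libraries held 12541465 to 19655235 counts, and 3 counts were worth 0.132 to 0.261 CPM. Every call below is an adjusted p under 0.05 in edgeR's quasi-likelihood test over 13706 tested genes, of which 27.5% were called, 14.0% higher and 13.5% lower in Fam210aHKO.

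Of the 10 genes, Uhrf1 and Hells rose and none fell, and the other 8 did not pass the test. By edgeR 0 were lower at an adjusted p under 0.05 and 0 at an unadjusted p under 0.05, where 4 were higher. An unadjusted p under 0.05 was reached by 5322 of all 13706 tested genes, in either direction. DESeq2 and limma-voom, like edgeR, called 2 of the 10 higher and 0 lower. All 10 passed the filter on low counts, but Uhrf1, Hells and Tet1 did so only through the Fam210aHKO libraries. A gene that enters the test in that way had to differ, and 2 of 10 is near the 14.0% of all tested genes called higher, so the count says nothing about the 10 as a set. In 5 of the 10 (Uhrf1, Hells, Tet1, Ezh2 and Dnmt3a) every Fam210aHKO library stood above every Ctrl library, against 22.0% of all tested genes. Uhrf1, Hells and Tet1 were favoured in this by the filter, and of the 7 genes that also passed it in Ctrl 2 stood apart in this way, near that share. In 0 of the 10 did every Fam210aHKO library stand below every Ctrl library, against 20.7% of all tested genes.

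**Figure D1:**
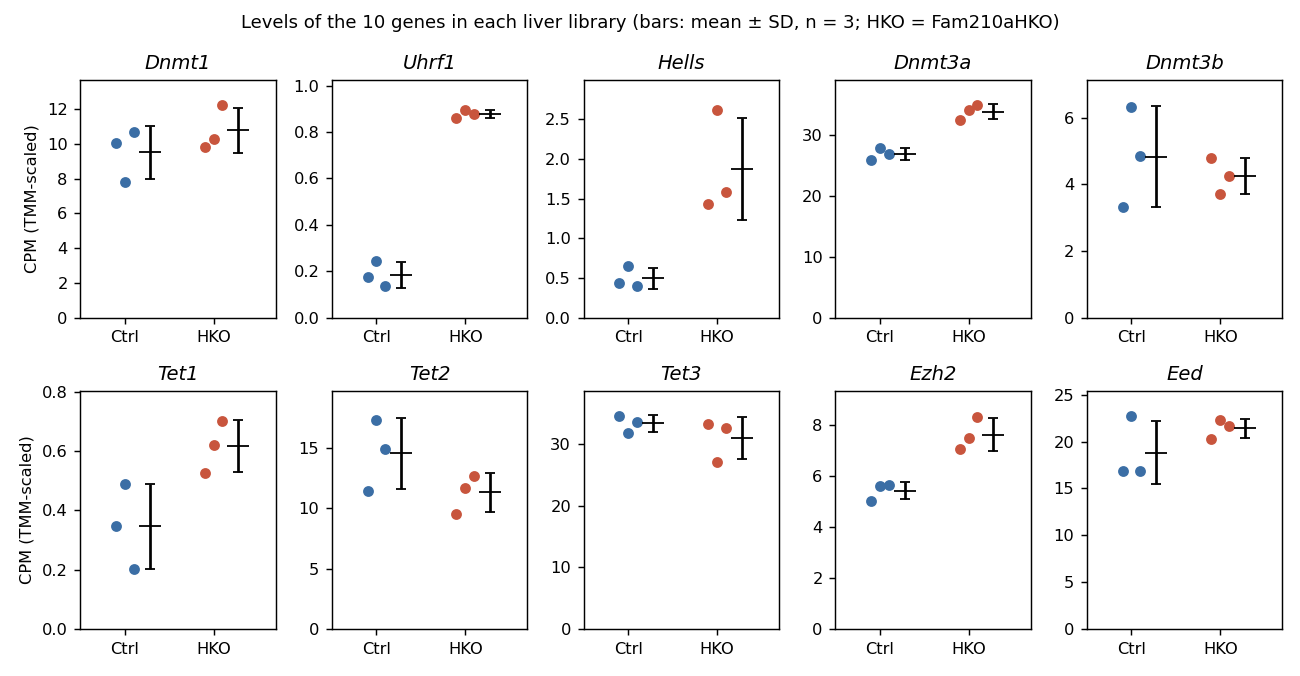
TMM-scaled CPM (y axis, from 0, a separate scale for each gene) of the 10 genes in the 3 Ctrl and 3 Fam210aHKO liver libraries, with points for libraries in replicate order and bars for mean ± SD. Uhrf1 and Hells are at the bottom of their scales in Ctrl, whereas Dnmt1, Dnmt3b, Tet2, Tet3 and Eed overlap between the groups.

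Uhrf1 lies on chr17:56303321-56323486, plus strand (mm10). It had 2, 3 and 2 counts in Ctrl replicates 1 to 3 and 18, 13 and 20 counts in Fam210aHKO. On the CPM scale these were 0.174, 0.244 and 0.134 in Ctrl and 0.861, 0.894 and 0.877 in Fam210aHKO. The message was thus near the limit of detection in every control library and below 1 CPM in the knockout libraries, with a wide gap between the groups. The log2 fold change was 2.23 (SE 0.503, adjusted p = 0.00708). With 7 control counts in all, the ratio of scaled totals was 4.84, with an exact 95% interval from 2.19 to 12.6 that covers counting error only.

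Hells lies on chr19:38930915-38971051, plus strand. It had 5, 8 and 6 counts in Ctrl and 30, 38 and 36 counts in Fam210aHKO, or 0.435, 0.649 and 0.403 CPM against 1.44, 2.61 and 1.58 CPM. The highest library was Fam210aHKO replicate 2, and the groups did not overlap. The log2 fold change was 1.89 (SE 0.412, adjusted p = 0.00614), and the ratio of scaled totals was 3.64 (exact 95% interval 2.22 to 6.28). Both genes were called under all 17 other settings of the fit. These settings refit the counts or FPKM values of the same libraries. Both genes also passed the filter only through the Fam210aHKO libraries, so the agreement adds no support to their calls. On counts the log2 fold change lay between 2.01 and 2.67 for Uhrf1 and between 1.60 and 2.34 for Hells, and on log2(FPKM + 1), from the authors' length-normalised values and compressed for low genes, it was 0.28 and 0.31.

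Dnmt1, the maintenance enzyme that UHRF1 recruits, was far more abundant per kilobase and did not pass the test. It lies on chr9:20907209-20959888, minus strand. Its level was 10.1, 7.79 and 10.7 CPM in Ctrl and 9.81, 10.3 and 12.2 CPM in Fam210aHKO, so the groups overlapped. The log2 fold change was 0.18 (SE 0.193, 95% interval -0.25 to 0.61, adjusted p = 0.532).

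The ratio of Uhrf1 to Dnmt1 counts within a library does not depend on how libraries are scaled. It was 0.0172, 0.0313 and 0.0126 in Ctrl replicates 1 to 3 and 0.0878, 0.0867 and 0.0717 in Fam210aHKO. Every knockout library stood above every control library, by 4.32-fold in the geometric mean (log2 difference 2.11). Per kilobase of deposited gene length, Uhrf1 stood at 0.0353 ± 0.0168 of Dnmt1 in Ctrl and 0.142 ± 0.0156 in Fam210aHKO (mean ± SD, n = 3 per group). An exact permutation test over 3 against 3 libraries cannot go below p = 0.1, two-sided, and gave 0.1 here (0.2 adjusted over the 8 ratios tested). Uhrf1 passed the filter only through the Fam210aHKO libraries, so this separation adds no support to its call.

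UHRF1, HELLS, DNMT1 and EZH2 are also known as products of genes that E2F transcription factors activate as cells enter S phase. Promoter windows of 300 bases (250 before to 50 after an annotated start) were therefore searched for 4 forms of the E2F site, TTTCCCGC, TTTGGCGC, TTTCGCGC and TTTGCCGC, on both strands. Matches of TTTGGCGC or TTTCGCGC on opposite strands can overlap at the shared GCGC. RefSeq (GRCm38.p6) gave windows for all 10 genes, 15 in all, and 4 genes had a match: Uhrf1, Hells, Dnmt1 and Ezh2. A match was found in 4.44% of the 10188 tested genes with a window, in 2.97% of all 20484 genes with one, and in 8 of 20 replication and proliferation genes. The 4 windows with a match are shown because they are the sequence feature that these genes share, 5′ to 3′ on the gene's strand, with the match in capitals. A match is a description of letters and does not show binding.
Uhrf1, chr17:56304063-56304362, plus strand: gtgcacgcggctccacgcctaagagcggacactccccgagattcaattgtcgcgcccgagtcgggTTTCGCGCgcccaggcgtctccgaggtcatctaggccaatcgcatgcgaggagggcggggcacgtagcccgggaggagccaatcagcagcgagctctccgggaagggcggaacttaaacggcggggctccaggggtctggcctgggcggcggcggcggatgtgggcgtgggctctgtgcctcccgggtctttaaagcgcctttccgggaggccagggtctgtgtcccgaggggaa
Hells, chr19:38930740-38931039, plus strand: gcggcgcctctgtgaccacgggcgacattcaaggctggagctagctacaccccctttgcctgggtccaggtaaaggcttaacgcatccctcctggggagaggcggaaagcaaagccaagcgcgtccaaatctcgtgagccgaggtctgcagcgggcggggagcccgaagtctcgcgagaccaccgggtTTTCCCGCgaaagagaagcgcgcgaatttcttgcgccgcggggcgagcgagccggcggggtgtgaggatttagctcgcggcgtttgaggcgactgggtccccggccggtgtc
Dnmt1, chr9:20952574-20952873, minus strand: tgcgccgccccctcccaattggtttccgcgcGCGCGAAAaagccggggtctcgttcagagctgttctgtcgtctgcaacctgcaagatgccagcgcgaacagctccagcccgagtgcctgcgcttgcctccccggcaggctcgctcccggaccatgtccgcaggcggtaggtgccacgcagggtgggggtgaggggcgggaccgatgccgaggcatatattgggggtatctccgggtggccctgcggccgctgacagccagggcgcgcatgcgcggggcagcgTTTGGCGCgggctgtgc
Ezh2, chr6:47594981-47595280, minus strand: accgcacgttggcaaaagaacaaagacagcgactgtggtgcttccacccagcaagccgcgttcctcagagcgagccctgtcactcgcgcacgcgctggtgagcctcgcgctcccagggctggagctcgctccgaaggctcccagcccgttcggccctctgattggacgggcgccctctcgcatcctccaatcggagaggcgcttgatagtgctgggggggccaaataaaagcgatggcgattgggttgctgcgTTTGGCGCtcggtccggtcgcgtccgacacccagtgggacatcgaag

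The match began 185 bases before the annotated start in Uhrf1 and 62 bases before it in Hells. In Ezh2 it began 3 bases after the start. Dnmt1 had 2 matches, 219 bases before and 33 bases after the start of its most downstream window. The first window of Uhrf1 and the other 2 windows of Dnmt1 held none. The shown windows held 33 CpG dinucleotides in Uhrf1, 34 in Hells, 33 in Dnmt1 and 31 in Ezh2, against a median of 19 per window over tested genes and 30 over the 15 windows of the 10 genes. The motifs themselves contain CpG, and this count did not set the 4 windows apart: windows without a match held 57 in Tet2 and 46 and 47 in Dnmt3a, but 12 in Uhrf1 and 12 and 2 in Dnmt1. The members that share the letters did not share the size of the difference, since Uhrf1 and Hells were called and Dnmt1 and Ezh2 were not.

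Genes of DNA replication and cell division rose in most cases. Of 23 tested members of this list 14 rose and 0 fell by edgeR (17 and 0 at an unadjusted p under 0.05, 13 and 0 by DESeq2), with a median log2 fold change of 1.04 against 0.02 over all tested genes. By edgeR 14.0% of all tested genes were higher. The summed CPM of the list was 92.2 to 122 in the Ctrl libraries and 216 to 271 in Fam210aHKO. The mitotic cyclins led it: Ccnb1, which drives entry into mitosis, rose from 0.346 ± 0.333 to 19.0 ± 4.07 CPM, Ccna2 from 0.790 ± 0.310 to 10.4 ± 2.74 CPM and the kinase gene Cdk1 from 1.28 ± 0.586 to 12.6 ± 2.27 CPM. Of the genes called, Ccnb1 and Gins2 passed the filter only through the Fam210aHKO libraries, which favoured their calls. In bulk tissue, more cells of a type and more RNA per cell cannot be told apart, and the part of cell division in the Uhrf1 and Hells values was not tested.

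Set against the 6 subunits of the replicative helicase (Mcm2 to Mcm7, counts summed within a library), the 4 genes with a match differed in direction. That direction depends on the genes set against. Log2 fold changes ran from -0.06 (Mcm4) to 1.64 (Mcm5) within the helicase. Across the replication and proliferation list they ran from -0.55 (Gins1) to 5.78 (Ccnb1), beside 2.23 for Uhrf1 and 1.89 for Hells. The ratios therefore do not place Uhrf1 and Hells above that list as a whole. Uhrf1 stood at 0.00637, 0.00673 and 0.00539 of the helicase counts in Ctrl and 0.0154, 0.0171 and 0.0159 in Fam210aHKO, a log2 difference of 1.39. Hells stood at 0.0159, 0.0179 and 0.0162 in Ctrl and 0.0256, 0.0499 and 0.0286 in Fam210aHKO, a log2 difference of 0.995. Both thus stood higher against the helicase in each knockout library than in any control library, whereas Ezh2 stood lower. Its ratio stood at 0.185, 0.155 and 0.226 in Ctrl and 0.126, 0.143 and 0.151 in Fam210aHKO (log2 difference -0.41), without overlap. Dnmt1 stood at 0.369, 0.215 and 0.429 in Ctrl and 0.175, 0.197 and 0.222 in Fam210aHKO (log2 difference -0.72), with overlap through Ctrl replicate 2. The exact permutation p was 0.1 for Uhrf1, Hells and Ezh2, the smallest possible, and 0.2 for Dnmt1 (0.2, 0.2, 0.2 and 0.267 adjusted over 8 ratios). Uhrf1 and Hells passed the filter only through the Fam210aHKO libraries, whereas Ezh2 and Dnmt1 also passed it in Ctrl. The separation of Uhrf1 and Hells here thus adds no support to their calls.

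**Figure D2:**
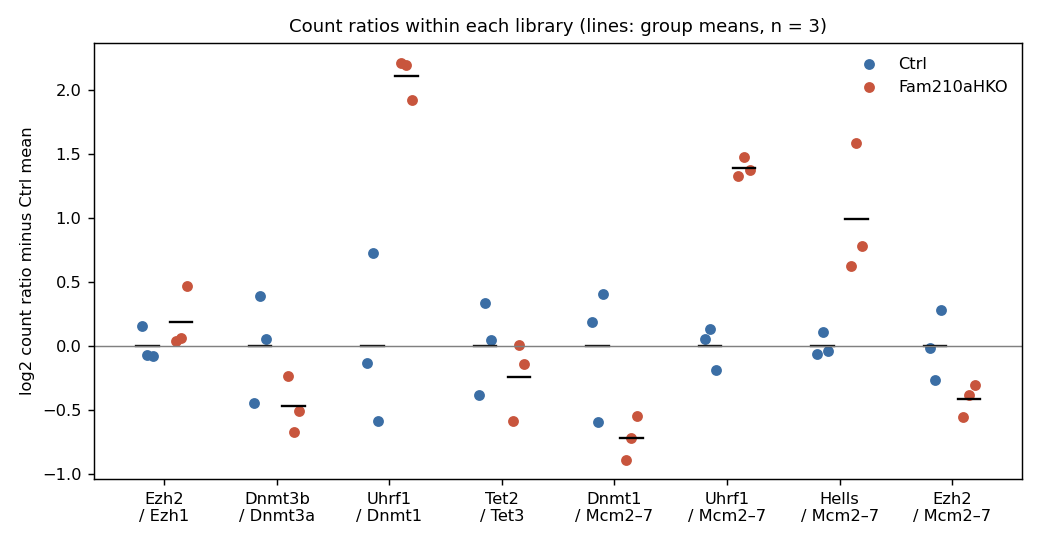
Log2 count ratio within each library minus the Ctrl mean of that ratio (y axis) for the 8 ratios, with points for libraries (blue Ctrl, red Fam210aHKO) and lines for group means. Uhrf1 over Dnmt1, Uhrf1 over the helicase and Hells over the helicase lie above the Ctrl points in all 3 Fam210aHKO libraries, and Ezh2 over the helicase lies below them.

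Of the de novo methyltransferases, Dnmt3a was the more abundant and stood slightly higher in the knockout, without passing the test. It lies on chr12:3806007-3914443, plus strand. Its level was 25.9, 27.8 and 26.8 CPM in Ctrl and 32.4, 34.1 and 34.9 CPM in Fam210aHKO. The groups did not overlap and the spread within each was small against the gap. The log2 fold change was 0.33 (SE 0.136, 95% interval 0.03 to 0.63) with an unadjusted p of 0.0329 and an adjusted p of 0.095.

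Dnmt3b, which is prominent in embryonic cells, lies on chr2:153649450-153687730, plus strand. It stood at 3.30, 6.33 and 4.84 CPM in Ctrl and 4.78, 3.71 and 4.25 CPM in Fam210aHKO. The control libraries spread more widely than the knockout libraries and enclosed them. The log2 fold change was -0.18 (SE 0.264, 95% interval -0.76 to 0.40, adjusted p = 0.655), and the sign turned without Ctrl replicate 2 (0.045). Per kilobase, Dnmt3b stood at 0.582 ± 0.163 of Dnmt3a in Ctrl and 0.411 ± 0.064 in Fam210aHKO (mean ± SD, n = 3 per group), a log2 difference of -0.47 with an exact permutation p of 0.2.

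Among the TET dioxygenases, Tet3 was the most abundant and Tet1 was close to the detection limit. Tet3 (chr6:83362373-83459084, minus strand) stood at 34.6, 31.9 and 33.6 CPM in Ctrl and 33.3, 27.1 and 32.6 CPM in Fam210aHKO, with overlapping groups. Its log2 fold change was -0.11 (SE 0.145, 95% interval -0.43 to 0.21, adjusted p = 0.631). Tet2 (chr3:133463679-133545139, minus strand), the TET gene best known from blood cells, stood at 11.4, 17.3 and 14.9 CPM in Ctrl and 9.52, 11.7 and 12.7 CPM in Fam210aHKO. Its groups overlapped as well, and the log2 fold change was -0.36 (SE 0.201, 95% interval -0.81 to 0.08, adjusted p = 0.209). Tet2 was lower in Fam210aHKO in each of the 3 same-numbered pairs, and the fit with the replicate number as a block gave an adjusted p of 0.108. The ratio of Tet2 to Tet3 counts was 0.438 ± 0.107 in Ctrl and 0.369 ± 0.0748 in Fam210aHKO (mean ± SD, n = 3 per group, exact permutation p = 0.4).

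Tet1 (chr10:62804570-62908996, minus strand), best known from embryonic stem cells, had 4, 6 and 3 counts in Ctrl and 11, 9 and 16 in Fam210aHKO. These were 0.348, 0.487 and 0.202 CPM against 0.526, 0.619 and 0.702 CPM, and the groups did not overlap. The log2 fold change of 0.85 did not pass (SE 0.512, 95% interval -0.28 to 1.98, adjusted p = 0.247). The ratio of scaled totals was 1.84 (exact 95% interval 0.953 to 3.78), so the interval from counting error alone includes no difference.

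Ezh2 and Eed, the 2 PRC2 genes described here, did not pass the test. Ezh2 (chr6:47530139-47595341, minus strand) stood at 5.04, 5.60 and 5.65 CPM in Ctrl and 7.08, 7.50 and 8.33 CPM in Fam210aHKO. Every knockout library was above every control library, and the log2 fold change was 0.49 (SE 0.192, 95% interval 0.07 to 0.91), with an unadjusted p of 0.0268 and an adjusted p of 0.0816. Eed (chr7:89954654-89980983, minus strand) stood at 16.9, 22.7 and 16.9 CPM in Ctrl and 20.3, 22.4 and 21.6 CPM in Fam210aHKO. Ctrl replicate 2 was the highest of all 6 libraries, and the log2 fold change was 0.19 (SE 0.169, 95% interval -0.18 to 0.56, adjusted p = 0.447).

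EZH1 is the alternative catalytic subunit of PRC2 and is the form typical of resting cells. Ezh1 stood at 16.2, 21.0 and 21.3 CPM in Ctrl and 24.6, 25.7 and 21.5 CPM in Fam210aHKO, a log2 fold change of 0.29 ± 0.166 (SE) with an adjusted p of 0.221. Per kilobase, Ezh2 stood at 0.347, 0.297 and 0.295 of Ezh1 in Ctrl and 0.320, 0.326 and 0.433 in Fam210aHKO. Ezh1 was therefore the more abundant of the pair in all 6 libraries, and the ratio overlapped between the groups (log2 difference 0.19, exact permutation p = 0.3). Without Fam210aHKO replicate 3 the difference was 0.048.

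Set in order per kilobase of deposited gene length, Eed stood highest in Ctrl at 4.92 ± 0.884 CPM per kb (mean ± SD, n = 3 throughout). It was followed by Tet3 at 1.999 ± 0.0819, Dnmt3a at 1.61 ± 0.0581 and Dnmt1 at 1.29 ± 0.207 CPM per kb. Dnmt3b (0.945 ± 0.296), Tet2 (0.862 ± 0.176) and Ezh2 (0.813 ± 0.0503 CPM per kb) came next, and from Dnmt1 to Ezh2 each neighbour's range overlapped the next. The bottom of the order was formed by Hells (0.0688 ± 0.0186), Uhrf1 (0.0432 ± 0.0130) and Tet1 (0.0224 ± 0.00923 CPM per kb). Hells and Uhrf1 overlapped, and a wide gap separated them from Ezh2.

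In Fam210aHKO the order was similar, with Eed at 5.60 ± 0.268 CPM per kb. Dnmt3a (2.03 ± 0.0751) and Tet3 (1.86 ± 0.203 CPM per kb) had changed places but overlapped, and Tet3 overlapped Dnmt1 (1.46 ± 0.174). Ezh2, at 1.14 ± 0.0956 CPM per kb, now stood above Dnmt3b (0.833 ± 0.105) and Tet2 (0.670 ± 0.0958) without overlap. Hells (0.260 ± 0.0893) and Uhrf1 (0.206 ± 0.00390 CPM per kb) remained below these in every library, and Tet1 was last at 0.0398 ± 0.00568. The sources used here do not say whether counting used strand, but annotated genes that overlap the 10 held few counts, at most 38 in Ctrl and 30 in Fam210aHKO summed over 3 libraries, and none overlaps Uhrf1 or Hells. The gene length counts every annotated exon, so these levels depend on which isoforms the liver uses.

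The calls depend on how libraries are scaled. When libraries were scaled by their totals alone, the median log2 fold change of tested genes shifted by 0.45, and 42.7% of tested genes were then called higher. Dnmt1 (log2 fold change 0.62), Dnmt3a (0.79), Ezh2 (0.94) and Eed (0.65) then joined Uhrf1 (2.67) and Hells (2.34) as higher, so that 6 of the 10 were. Dnmt3b, Tet2 and Tet3 turned to 0.29, 0.10 and 0.35 without being called. The fold changes in the text are relative to the typical gene unless library totals are named.

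**Figure D3:**
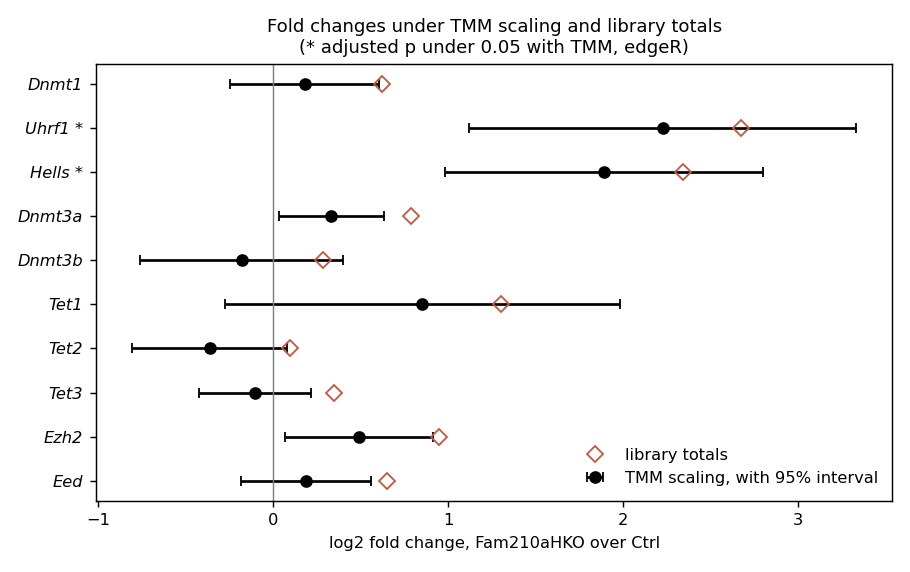
Log2 fold change of Fam210aHKO over Ctrl (x axis) for the 10 genes, with filled circles and 95% intervals for TMM scaling and open diamonds for library totals. Under TMM the intervals of Uhrf1, Hells, Dnmt3a and Ezh2 lie above 0 before adjustment, and library totals move every gene to the right.

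Genes that work beside these enzymes were taken from fixed lists. Of 25 tested partners and readers of DNA methylation 5 rose, 1 fell and 19 did not pass. Over all tested genes 14.0% were higher and 13.5% lower. With library totals 11 of the 25 were higher and 0 lower, where 42.7% of all tested genes were higher. With the replicate block 2 of the 25 were lower, and on log2(FPKM + 1) 3 were higher. Gadd45a, a stress-induced gene proposed to help in demethylation, rose from 0.989 ± 0.214 to 10.1 ± 0.525 CPM, a log2 fold change of 3.33 ± 0.244 (SE) with an adjusted p of 8.24e-06. Apex1, an endonuclease of base excision repair, rose from 5.35 ± 1.20 to 10.8 ± 1.17 CPM. Trim28, a corepressor that protects methylation at imprinted genes, rose from 50.1 ± 5.91 to 79.8 ± 12.8 CPM, a call lost without Fam210aHKO replicate 1 (adjusted p = 0.0535). The methyl-CpG binding protein gene Mbd1 fell from 46.7 ± 1.57 to 29.9 ± 0.189 CPM (adjusted p = 0.00435), a call that library totals ended (adjusted p = 0.314).

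The other 2 that rose, named after their values were seen, were Tdg, the glycosylase that removes oxidised methylcytosine, and Uhrf2, the paralog of Uhrf1. Tdg stood at 17.7, 18.7 and 20.9 CPM in Ctrl and 25.9, 26.8 and 28.9 CPM in Fam210aHKO (log2 fold change 0.51) and Uhrf2 at 27.7 ± 0.385 and 41.1 ± 6.25 CPM (0.57). Per kilobase, Uhrf2 stood at 3.23 ± 0.0448 CPM per kb in Ctrl, far above Uhrf1 at 0.0432 ± 0.0130. Without Ctrl replicate 1 or Fam210aHKO replicate 1, 3 partners of the list were higher rather than 5. Tdg and Uhrf2 were lost in both cases. Trim28 was lost as well without Fam210aHKO replicate 1, so the 3 there include a partner not called in the main fit. Tdg and Uhrf2 also lost their calls on log2(FPKM + 1). Uhrf2 was also lost without Ctrl replicate 3, and Tdg without Ctrl replicate 2, Fam210aHKO replicate 2 or Fam210aHKO replicate 3. Of Dnmt3l, Zfp57 and Cxxc4, which did not reach the filter, none was tested.

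Of the 12 other PRC2 subunits 1 rose, 1 fell and 10 did not pass, where 14.0% of all tested genes rose and 13.5% fell. The one that rose was Aebp2, an accessory subunit that helps PRC2 bind nucleosomes, from 32.7 ± 3.30 to 77.9 ± 10.7 CPM, a log2 fold change of 1.25 ± 0.156 (SE) with an adjusted p of 0.000209. The histone-binding subunit Rbbp4 fell from 73.0 ± 6.76 to 54.1 ± 0.530 CPM (adjusted p = 0.0337). That call was lost with library totals, where the log2 fold change was 0.018, and without Ctrl replicate 3 or any 1 of the Fam210aHKO libraries. It was also lost with no filter on low counts. With library totals 8 subunits were higher and 0 lower, where 42.7% of all tested genes were higher. Under the replicate block 2 subunits were higher.

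Polycomb repressive complex 1 (PRC1) ubiquitylates histone H2A and compacts chromatin. Of its 27 subunits and partners, all tested, 6 rose and 0 fell by edgeR, and also by DESeq2. By edgeR 14.0% of all tested genes rose and 13.5% fell. At an unadjusted p under 0.05, 10 of the 27 were higher and 1 was lower. That level was reached by 5322 of all 13706 tested genes, in either direction. Log2 fold changes had a median of 0.25 in PRC1 and 0.02 over all tested genes. Whether PRC1 differs from other genes in these counts was not tested. The catalytic RING subunit Rnf2 rose from 21.1 ± 3.49 to 38.4 ± 5.73 CPM, a log2 fold change of 0.86 ± 0.174 (SE) with an adjusted p of 0.00393. Its partner Bmi1 rose from 27.1 ± 0.566 to 42.2 ± 8.68 CPM and the corepressor Bcor from 21.0 ± 3.58 to 34.9 ± 4.05 CPM. The RING partners Pcgf2 and Pcgf6, named after their values were seen, rose too (log2 fold changes 0.97 and 0.71). Without Ctrl replicate 2, Ctrl replicate 3 or Fam210aHKO replicate 1 only 3 of the 27 were higher. With library totals 17 were, where 42.7% of all tested genes were higher. Bmi1 was lost without Ctrl replicate 3, Fam210aHKO replicate 1 or Fam210aHKO replicate 2. Pcgf2 was lost without Ctrl replicate 1, Ctrl replicate 2 or Fam210aHKO replicate 1, and Pcgf6 without Ctrl replicate 2, Ctrl replicate 3 or Fam210aHKO replicate 1.

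None of the 7 tested genes that remove H3K27 methylation or H2A ubiquitin was called by edgeR or DESeq2 (1 was higher and 0 lower at an unadjusted p under 0.05), with 5 higher under library totals and 1 with the replicate block. Of all tested genes, 14.0% were higher and 13.5% lower in the main fit, and 42.7% were higher under library totals. The most abundant were Usp16 (39.3 ± 0.906 and 45.9 ± 4.24 CPM) and Bap1 (38.1 ± 3.47 and 42.4 ± 3.10 CPM), both H2A deubiquitinases. Of 6 H3K9 methyltransferases, whose mark UHRF1 also reads, Setdb2 fell from 18.3 ± 2.30 to 11.8 ± 1.41 CPM (adjusted p = 0.0201) and 5 did not pass. The Setdb2 call was lost with library totals (0.446) and without Ctrl replicate 2, Fam210aHKO replicate 2 or Fam210aHKO replicate 3.

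**Figure D4:**
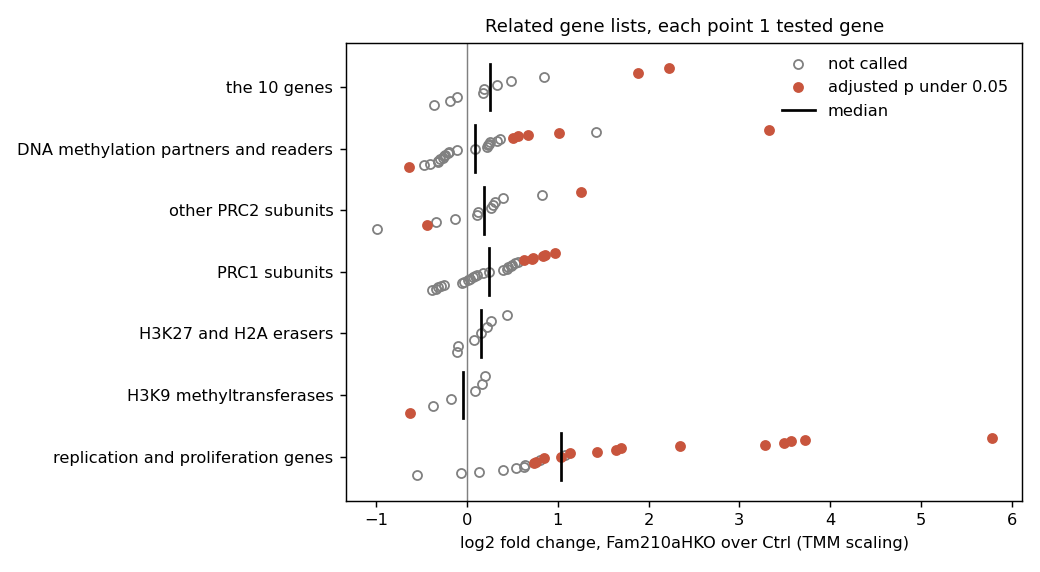
Log2 fold change under TMM scaling (x axis) of each tested gene in the 10 genes and 6 related lists (y axis), with filled points for an adjusted p under 0.05 and a line at each median. The replication and proliferation list reaches 5.78 (Ccnb1), and the largest values among the other lists belong to Gadd45a and, of the 10 genes, to Uhrf1 and Hells.

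Genes that these systems are known to hold silent mostly did not reach the filter on low counts. Of 28 Polycomb target genes, mainly of the Hox clusters, 15 had 0 counts in all 6 libraries and 3 reached the filter (Hoxa5, Lhx2 and Gata4), none of them called by edgeR and 0 at an unadjusted p under 0.05. Of 16 germline genes whose promoters are normally methylated in somatic cells, 5 had 0 counts in all 6 libraries and only Brdt was tested (2.18 and 2.59 CPM, adjusted p = 0.575). Below the filter, the meiotic gene Sycp3 had 14, 8 and 11 counts in Ctrl and 1, 1 and 4 in Fam210aHKO. The germ cell helicase gene Ddx4 had 0, 1 and 0 counts in Ctrl and 3, 22 and 5 in Fam210aHKO, most of them in 1 library. The summed CPM of the Polycomb targets was 23.4 to 31.3 in Ctrl and 17.6 to 27.5 in Fam210aHKO, and that of the germline genes 2.84 to 3.48 and 2.30 to 4.47, so both overlapped between the groups. Most of each sum came from 1 gene, Gata4 (18.2 to 25.1 CPM in Ctrl) and Brdt (2.03 to 2.42 CPM in Ctrl), so the sums say little about the silent genes.

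The nearest patterns over the 6 libraries were sought by Euclidean distance of centred log2(CPM + 0.25) among tested genes of at least 1 CPM, as a description with no test. For Ezh2 they were Nipsnap2, Slc37a3 and Tdg, at distances of 0.0966, 0.0975 and 0.125. For Dnmt3a they were 9330159M07Rik, Prkaa1 and Mta2 (0.0349, 0.0815 and 0.0837), and for Dnmt1 Pla2g4a, Dnaaf5 and Sod3 (0.0494, 0.133 and 0.134). The closest was Tapt1 for Tet2 (0.105), Zbtb14 for Tet3 (0.0812), Kin for Tet1 (0.173), Cep19 for Eed (0.0785) and Mbip for Dnmt3b (0.109). Akr1b3 and Tbpl1 (0.154 and 0.225) were among those of Uhrf1, and Cd14, Slc25a4 and Nt5c3b (0.272, 0.324 and 0.353) were those of Hells. The added 0.25 CPM compresses the pattern of Uhrf1, since Akr1b3 and Tbpl1 had smaller log2 fold changes (1.40 and 1.38) than its own 2.23.

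Some cell type markers differed between the groups too, and their part in the values above was not tested. Of all tested genes 14.0% were called higher and 13.5% lower. Hepatocyte markers were lower for 6 of 8 and summed to 143302 to 224211 CPM in Ctrl and 81042 to 102161 CPM in Fam210aHKO. Most of that sum was Alb (110643 to 183868 CPM in Ctrl and 68148 to 86553 CPM in Fam210aHKO), which edgeR did not call (adjusted p = 0.449). Cholangiocyte markers were higher for 2 of 4 tested (39.3 to 58.5 and 135 to 275 CPM, mostly Spp1). Stellate and fibroblast markers were higher for 2 of 8 (330 to 386 and 430 to 638 CPM). Macrophage markers were higher for 3 of 8 (Cd68, Trem2 and Gpnmb), with overlapping sums of 458 to 565 and 369 to 711 CPM. Trem2 and Gpnmb passed the filter only through the Fam210aHKO libraries, which favoured their calls, and the other 5 macrophage markers were not called. Endothelial markers were lower for 2 of 6, with overlapping sums of 264 to 357 and 169 to 290 CPM. Lymphocyte markers were called for 0 of 4 tested by edgeR, also at an unadjusted p under 0.05 (15.9 to 18.2 and 13.7 to 20.7 CPM). Erythroid markers were lower for 2 of 5 tested (84.3 to 88.2 and 24.4 to 229 CPM, the highest in Fam210aHKO replicate 3). Those 2 were Alas2 and Klf1, and the 3 globin genes had positive log2 fold changes that did not pass (Hba-a1 1.75, Hbb-bs 1.45 and Hbb-bt 1.45).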

How the data were processed

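Poly-A RNA of mouse liver was sequenced in 6 libraries, 3 per group, grouped by title. The submitters' processing notes list mm10, STAR, featureCounts, Trimmomatic, FastQC and DESeq2, without versions. The sources used here do not give the strand setting or the treatment of multiply mapped reads. The authors deposited whole-number counts per Ensembl gene and FPKM values; the FPKM size was 55.4% to 86.3% of each library's count total. Genes were filtered with filterByExpr (minimum count 10), scaled by TMM and tested with edgeR 4.0.16 (glmQLFit without the legacy option, glmQLFTest, Benjamini-Hochberg adjustment over 13706 genes) in R 4.3.3, for Fam210aHKO against Ctrl with no covariate. DESeq2 1.42.0, limma 3.58.1 (voom and log2 FPKM with pseudocounts of 1 and 0.1), other scalings and filters, the replicate number as a block, and each library left out were alternatives; the legacy option of edgeR was chosen after seeing the data. The fitting was tested on simulated data in which only genes of higher CPM than Uhrf1 and Hells were changed. That simulation therefore does not cover calls at counts as low as theirs. Libraries correlated at most at 0.982, and none was a duplicate.

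Same-numbered libraries deviated together from their group means (correlations 0.245, 0.182 and 0.155, against -0.141 to -0.0262 for other pairs). Centring on the group mean pushes other pairs below 0 once same-numbered pairs are above it, so this is weak evidence of pairing. The numbers were therefore used as a block in an alternative fit only, and the main fit and the permutation tests over 3 against 3 libraries did not use them. Named were the 10 genes, up to 3 called genes of smallest p per related list in the more frequent direction and 2 in the other (the 2 most abundant where none was called), members of ratios and nearest patterns. The 10 genes, the lists and the E2F motifs were chosen with earlier results of these data known. Count ratios were compared by exact permutation over libraries, two-sided. The exact intervals of the ratios of scaled totals and the detection limits cover counting error only. Intervals of log2 fold changes come from the edgeR fit and also include the spread between libraries. Promoter sequences are from RefSeq (GRCm38.p6). Some genes that the naming rule or a list covers are not reported here.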

Additional observations from a re-analysis of the deposited data

How the results depend on the processing

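The count of the 10 genes called higher stayed at 2 under every alternative except library totals, where it was 6 and the count of all called genes was 6714 against 3774. Library totals also turned Dnmt3b to 0.29, Tet2 to 0.10, Tet3 to 0.35 and Rbbp4 to 0.018 (log2 fold changes), and Dnmt3b ranged from -0.40 to 0.045 with 1 library left out, the highest without Ctrl replicate 2. With the replicate block 2 of the 10 genes were higher and 4896 genes were called in all, and no call among the 10 changed. Leaving out each library in turn gave 2767 to 3699 called genes, and the adjusted p of Uhrf1 and Hells by edgeR then reached at most 0.0407 and 0.0353. Tet1 was not tested when the filter asked for more than 1 CPM or without Fam210aHKO replicate 3. The cause of these shifts was not tested. Uhrf1, Hells and Tet1 rest on 7, 19 and 13 control counts, and depth limits their fold changes.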
